A study of Gallus gallus with 28 samples.

Results

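The genes described here are 10 kinases, adaptors and a phosphatase that act at the B-cell receptor itself or one step from it. They are the Src-family kinases LYN and FYN, the Csk-homologous kinase MATK, the kinase SYK, the adaptors BANK1, PIK3AP1, DAPP1, GRB2 and PAG1, and the inositol phosphatase INPP5D. A probe set was taken as a member when the platform annotation gave it a single gene symbol and that symbol was 1 of the 10, which selected 18 of 38382 probe sets and 10 of 13009 genes.

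When antigen clusters the B-cell receptor, LYN and related Src-family kinases phosphorylate the tails of CD79A and CD79B, SYK docks there, and adaptors then assemble the complexes in which BTK, phosphoinositide 3-kinase and phospholipase C act. BTK (Bruton's tyrosine kinase) is recruited to the membrane by the lipid that phosphoinositide 3-kinase makes and that INPP5D removes. MATK and the CSK that PAG1 recruits restrain Src-family kinases by phosphorylating their inhibitory tail. DT40 cells are a classical system for this pathway, because genes in them can be disrupted by targeted integration.

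RNA levels were measured on 28 Affymetrix chicken arrays in 4 lines derived from DT40, a chicken B-cell lymphoma line. B41-13 is the Btk knockout reconstituted with human BTK, B46-5 the knockout reconstituted with kinase-inactive human BTK, B7.10 the Btk knockout itself, and DT40 the parental line with endogenous Btk. Cells of every line were collected after 2 h (S2) or 6 h (S6) with the stimulus that the labels call IgM (M4), or after 24 h (C24) or 6 h (C6) without it, all after 15 min in serum-free medium. M4 is known as a monoclonal antibody to chicken IgM. B7.10 and DT40 were grown in 3 batches of fetal calf serum, with 3 arrays each at S6, C24 and C6 and 1 array at S2 (batch 1). B41-13 and B46-5 had 1 array per condition, all in batch 1. RNA from 10 repeats of an experiment was pooled for each array. For the groups of 3 arrays a p-value therefore measures the spread between pools, which also differed in serum batch. Where a group had 1 array, a p-value measures the spread around an additive fit of line and condition. The labels do not say whether the mutant lines are single clones, and each genotype is represented by 1 line.

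Groups were taken from the sample titles. For 5 of the 28 arrays another label disagrees with the title. They are B7.10 S6 of batch 2 (serum batch), B7.10 S6 of batch 3 (stimulation), B41-13 S6 (line and time), B46-5 C24 (time) and B46-5 S6 (time). Results that lose their call without these 5 arrays are given both ways. Array medians lay between 4.37 and 4.5 on the log2 scale. A level under 3.98, the mean below which the dimmest 40% of probe sets lay, is called near background here. Background itself was not measured. BTK itself averaged 5.84 ± 0.16 in B41-13 and 5.25 ± 0.1 in B46-5 (SD, n = 4 each), 4.99 ± 0.18 in B7.10 and 9.91 ± 0.35 in DT40 (SD, n = 10 each). The array was designed on chicken sequence, and how far the probes read the human constructs was not tested. All 4 BTK values of B41-13 lay above all 10 of B7.10 (0.71 ± 0.09 in serum batch 1, limma adjusted p = 2.13e-05), whereas the excess of B46-5 over B7.10 was 0.12 ± 0.09 without a call (adjusted p = 0.577). Of 8 measured B-cell markers 7 lay above 3.98, CD79B among them, and CIITA did not. Of 8 T-cell markers 6 also lay above it, and CD4 and CD28 did not. By line CD3D averaged 11.86 to 12.37, CD3E, CD8A and CD5 4.66 to 6.56, and LCK and ZAP70 4.35 to 4.54. All 4 measured myeloid and thrombocyte markers, 2 of 2 erythroid and 3 of 5 fibroblast markers lay above 3.98 as well. This level therefore does not separate cell types. Most of the summed T-cell marker signal came from CD3D. On the linear scale that sum was 3755 to 4256 in B41-13 and 5463 to 5632 in B46-5. It was 4009 to 5207 in B7.10 and 3507 to 4856 in DT40. The summed B-cell marker signal (linear scale) ranged over arrays from 11466 to 13470 in B41-13, 9550 to 10240 in B46-5, 8117 to 11232 in B7.10 and 6391 to 9925 in DT40, and the part of either sum in the differences described here was not tested. In such bulk RNA, fewer cells that express a gene and less RNA per cell cannot be told apart.

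The 10 genes differed widely in how much they varied. Over all 28 arrays the SD of FYN was 1.58 log2 units, which exceeded that of 99.9% of all probe sets. For PAG1 the SD was 0.58 (above 97.9% of probe sets), for BANK1 0.55 (above 97.7%), and for MATK 0.5 (above 97%). PIK3AP1, DAPP1 and LYN followed with 0.36, 0.34 and 0.32, and SYK and INPP5D with 0.25 and 0.22. GRB2 lay at the other end, with an SD of 0.14 in its brightest probe set that exceeded that of only 26.7% of probe sets. Its other probe sets had SDs of 0.17 (above 51.9% of probe sets) and 0.32 (above 89.7%). The second INPP5D probe set had 0.3 (above 87.6%), so the order of the genes depended on the probe set. Where a gene had several probe sets, the one with the highest mean stands for it, and suffixes _s_at and _a_at mark probe sets whose probes match several transcripts.

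**Figure D1:**
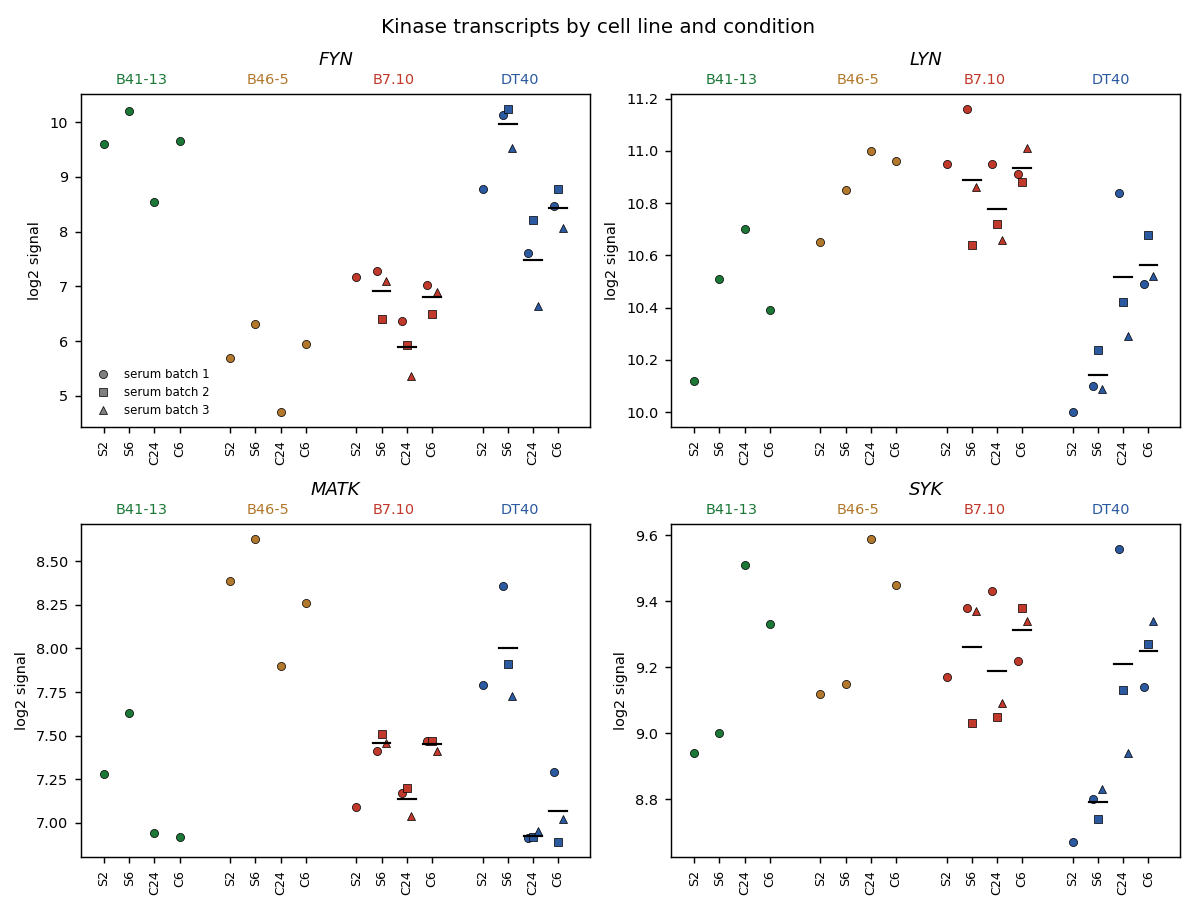
Level (log2, y axis) of the kinases FYN, LYN, MATK and SYK on each of the 28 arrays, by line and condition (x axis); marker shapes show the serum batch and bars the mean of groups with 3 arrays. FYN stands highest in B41-13 and DT40 and lowest in B46-5, whereas MATK stands highest in B46-5 and in stimulated DT40.

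The knockout differed from parental cells in 4 of the 10 genes when S6, C24 and C6 were averaged: FYN and PAG1 were lower in B7.10, and LYN and BANK1 were higher. In probe sets this was 7 of 18 called, 4 higher and 3 lower. A probe set was called where limma, a linear model with moderated variances, gave a p under 0.05 after Benjamini-Hochberg adjustment over every probe set tested. In this comparison 13.4% of all probe sets were called (5.22% higher and 8.22% lower). With 1 probe set per gene, 4 of 10 genes stood against 19.6% of all genes. The members and the pathway lists below were chosen with earlier results of these data known. Of the 18 member probe sets 1 lay near background, against 40% of all probe sets, a share set by the definition of that level. Here and below, the share of all probe sets or genes is therefore given for scale and is no test of the members as a set. The median difference of the 18 probe sets was 0.03, against 0.01 for all probe sets.

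FYN encodes a Src-family kinase that can phosphorylate receptor tails and is best known from T-cell receptor signalling. At S6 its level in batches 1, 2 and 3 was 7.28, 6.4 and 7.09 in B7.10, against 10.13, 10.24 and 9.52 in DT40. At C24 it was 6.36, 5.92 and 5.37 in B7.10, against 7.61, 8.21 and 6.65 in DT40, and at C6 it was 7.03, 6.49 and 6.89 in B7.10, against 8.46, 8.78 and 8.07 in DT40. Every B7.10 array lay below every DT40 array of the same condition. For this and later statements on overlap, the share of all probe sets without overlap was not counted. Averaged over the 3 conditions the FYN difference of B7.10 minus DT40 was -2.09 ± 0.19 log2 units (SE), or 4.27-fold (95% interval of the log2 difference -2.49 to -1.69, limma adjusted p = 1.73e-07). A second FYN probe set, whose levels correlated with the first at r = 0.97 over the 28 arrays, gave -1.74 ± 0.18 (adjusted p = 6.94e-07). The FYN difference was -3.04 ± 0.33 at S6 (8.22-fold, adjusted p = 6.09e-06), -1.61 ± 0.33 at C24 (adjusted p = 0.00602) and -1.63 ± 0.33 at C6 (adjusted p = 0.00491). At C24 the call was lost without the B7.10 array of batch 3 (-1.35, adjusted p = 0.0529), and with only the C24 arrays in the fit (adjusted p = 0.0543).

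PAG1, also called Cbp, is a transmembrane adaptor of lipid rafts that recruits CSK and so holds Src-family kinases back. Over S6, C24, C6 and S2 its level in B7.10 ran from 4.01 to 4.7 with a median of 4.41, close to background, against 4.6 to 5.97 with a median of 5.51 in DT40. At C6 the batches 1, 2 and 3 gave 4.01, 4.01 and 4.39 in B7.10, against 5.75, 5.9 and 5.14 in DT40, with no overlap. The difference averaged -1.17 ± 0.12, or 2.25-fold (limma adjusted p = 1.21e-06), and was -1.34 ± 0.21 at S6 (adjusted p = 0.000469) and -1.46 ± 0.21 at C6 (adjusted p = 0.000244). At C24 it was -0.71 ± 0.21, which missed the threshold (adjusted p = 0.0693) and passed it in the fit blocked by serum batch (adjusted p = 0.0342). The DT40 array of batch 3 was the lowest of its group there, at 4.6, and without it the C24 difference was -0.98 (adjusted p = 0.00624). Without the DT40 C6 array of batch 3 the adjusted p was 0.041.

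LYN, the Src-family kinase most associated with the B-cell receptor, moved the other way. At S6 its level in batches 1, 2 and 3 was 11.16, 10.64 and 10.86 in B7.10, against 10.1, 10.24 and 10.09 in DT40. The groups did not overlap at S6. At C24 they did, with 10.95, 10.72 and 10.66 in B7.10 and 10.84, 10.42 and 10.29 in DT40. LYN was higher in B7.10 by 0.46 ± 0.08 on average, 1.37-fold (limma adjusted p = 0.00038), and by 0.74 ± 0.14 at S6 (adjusted p = 0.00196). It was not called at C24 (0.26 ± 0.14, adjusted p = 0.37) or at C6 (0.37 ± 0.14, adjusted p = 0.165). At C6 the groups nevertheless did not overlap, with 10.91, 10.88 and 11.01 in B7.10 against 10.49, 10.68 and 10.52 in DT40. The second brightest LYN probe set gave 0.56 ± 0.07 on average (adjusted p = 1.58e-05), and all 10 of its B7.10 values, 6.65 to 7.8, lay above all 10 DT40 values, 6.08 to 6.64. This probe set was called at C6 (0.52, limma adjusted p = 0.0177) and not at C24 (0.31, adjusted p = 0.216). Its C6 call was lost without batch 1, and other alternatives for that call are not reported here. The third LYN probe set lay near background and was not called.

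BANK1 is a B-cell scaffold with ankyrin repeats that binds LYN and the receptor for inositol trisphosphate. At C24 its level in batches 1, 2 and 3 was 6.31, 6.59 and 6.22 in B7.10, against 4.91, 5.72 and 5.57 in DT40. At S6 it was 6.41, 6.39 and 6.14 in B7.10, against 5.22, 5.67 and 5.48 in DT40. Both conditions separated the lines without overlap. The BANK1 difference averaged 0.83 ± 0.11, 1.78-fold (limma adjusted p = 1.26e-05). By condition it was 0.85 ± 0.18 at S6 (adjusted p = 0.00682), 0.97 ± 0.18 at C24 (adjusted p = 0.00294) and 0.66 ± 0.18 at C6 (adjusted p = 0.0414). The S6 call was lost without the DT40 S6 array of batch 1 (0.73, adjusted p = 0.0523) and without the disputed arrays (0.95, adjusted p = 0.0848). The C6 call was lost without the disputed arrays (adjusted p = 0.0627), without any 1 of the 3 DT40 C6 arrays (up to 0.18), without the B7.10 C6 arrays of batch 1 or 2 (0.135 and 0.159), and without DT40 S6 of batch 3, B7.10 S6 of batch 1 or B7.10 S6 of batch 2 (0.0511 to 0.053). A second and dimmer BANK1 probe set was higher in B7.10 by 0.34 ± 0.07 on average (adjusted p = 0.00143). It was not called at S6, C24 or C6 alone (limma adjusted p = 0.0961, 0.152 and 0.121). Its DT40 values at S6, 3.78, 3.94 and 3.93, lay near background, so the size of this difference is uncertain.

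**Figure D2:**
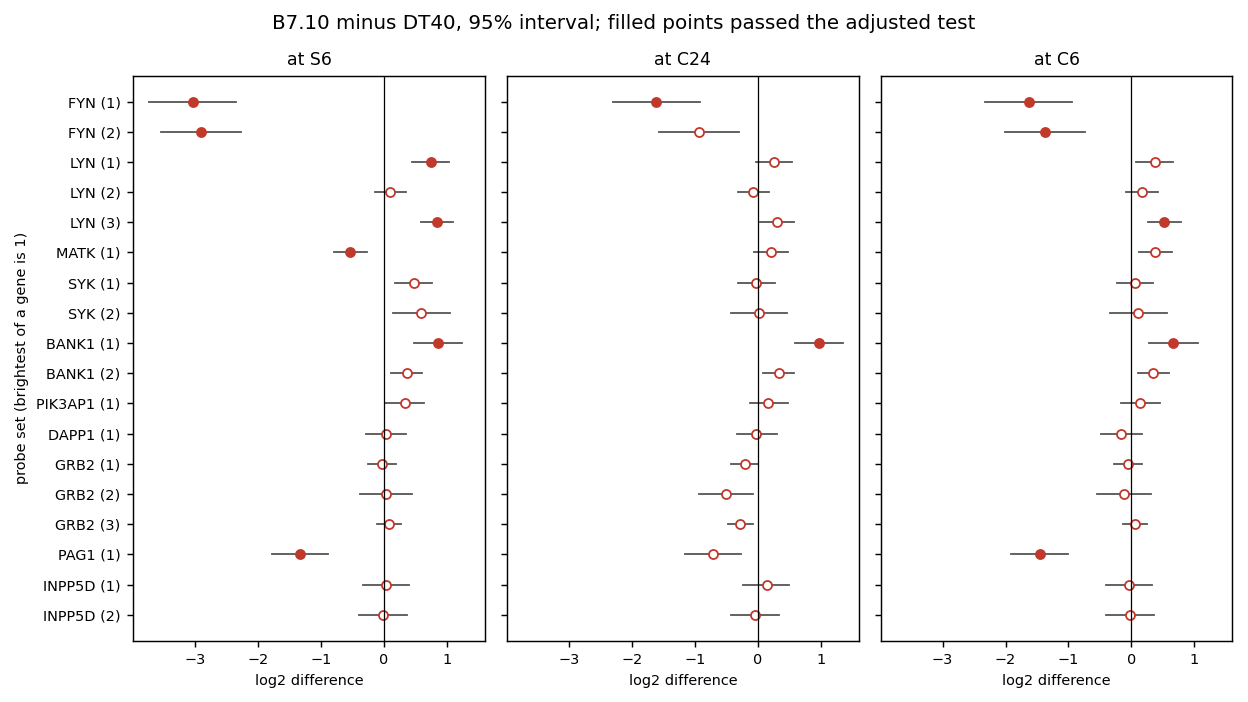
Difference of B7.10 minus DT40 (log2, x axis, with 95% interval) for all 18 probe sets at S6, C24 and C6, 1 panel each, numbered within a gene where there are several, with 1 the brightest; filled points passed the limma threshold. FYN lies at -3.04 at S6 and near -1.6 at C24 and C6, and MATK lies at -0.54 at S6 and 0.38 at C6.

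The remaining genes differed little between knockout and parental cells on average. SYK, the kinase that binds the phosphorylated receptor tails, differed by 0.17 (95% interval 0.01 to 0.34, limma adjusted p = 0.202), and was called without the DT40 C24 array of batch 1 (0.23, adjusted p = 0.0314). The interval for DAPP1, an adaptor also known as Bam32 that binds phosphoinositides, was -0.23 to 0.14. GRB2, the adaptor that links receptors to the Ras exchange factor SOS, gave -0.1 with an interval of -0.23 to 0.02, and INPP5D gave 0.04 with an interval of -0.17 to 0.25. PIK3AP1, the adaptor BCAP that brings phosphoinositide 3-kinase to the receptor complex, was 0.22 ± 0.08 higher in B7.10 without a call (adjusted p = 0.115). Blocked by serum batch, the same PIK3AP1 difference had an adjusted p of 0.00842, and over all alternatives its adjusted p ranged from 0.00842 to 0.339.

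Condition by condition, the count of called probe sets was 7 of 18 at S6 (5.4% of all probe sets), 2 of 18 at C24 (4.44%) and 5 of 18 at C6 (4.83%). MATK differed by 0.02 on average (interval -0.13 to 0.17), and its differences at S6 and C6 had opposite signs. At S6 its level in batches 1, 2 and 3 was 7.41, 7.51 and 7.46 in B7.10, against 8.36, 7.91 and 7.73 in DT40, a difference of -0.54 ± 0.13 (limma adjusted p = 0.0139). That call was lost without the DT40 S6 array of batch 1 (-0.36, adjusted p = 0.0946), without the B7.10 S6 array of batch 1 (adjusted p = 0.0663) or of batch 3 (0.0556), and without the disputed arrays (-0.58, adjusted p = 0.157). At C6 the levels were 7.47, 7.47 and 7.41 in B7.10, against 7.29, 6.89 and 7.02 in DT40, a difference of 0.38 ± 0.13 (adjusted p = 0.105; 0.0317 without the DT40 S6 array of batch 1). SYK at S6 was 9.38, 9.03 and 9.37 in B7.10, against 8.8, 8.74 and 8.83 in DT40, with no overlap. This difference of 0.47 ± 0.14 missed the threshold (adjusted p = 0.0545) and passed it in the fit blocked by serum batch (adjusted p = 0.0386). It also passed without the DT40 C24 array of batch 1 (0.0168) or 3 (0.0289), the B7.10 C24 array of batch 1 (0.0392) or the B7.10 S6 array of batch 2 (0.0252). Leaving out a whole serum batch, which left 2 arrays a group, ended further calls between the lines. At S6 the PAG1 call (adjusted p = 0.0676) and the BANK1 call (0.0888) were lost without batch 1, the MATK call without batch 1 (-0.33, adjusted p = 0.248) or 2 (0.0929), and the LYN call without batch 3 (0.0569). At C24 the FYN call was lost without batch 1 (0.0731) or 2 (0.0683), and the BANK1 call without batch 1 (0.0679). At C6 the FYN call was lost without batch 1 (0.0786) or 2 (0.0629), the PAG1 call without batch 1 (0.0511), and the BANK1 call without any 1 batch (0.0797 to 0.224). Blocking also brought the second SYK probe set (0.59, adjusted p = 0.0169 against 0.147) and PIK3AP1 (0.33, adjusted p = 0.0375 against 0.286) past the threshold at S6, and the second FYN probe set at C24 (-0.93, adjusted p = 0.0361 against 0.0991).

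Receptor stimulation for 6 h raised MATK in parental cells. MATK encodes a kinase related to CSK that phosphorylates the inhibitory tail of Src-family kinases. Its level in batches 1, 2 and 3 was 8.36, 7.91 and 7.73 at S6, against 7.29, 6.89 and 7.02 at C6, and the within-batch differences were 1.07, 1.01 and 0.71. The groups did not overlap. The MATK rise in DT40 was 0.93 ± 0.13, or 1.91-fold (95% interval 0.67 to 1.2, limma adjusted p = 0.00447). It was the only call among the 18 probe sets, in a comparison that called 17 of all probe sets (0.0443%). Without the DT40 C6 array of batch 3 the call was lost (0.91, adjusted p = 0.0504), as it was without all arrays of batch 1 (0.86, adjusted p = 0.137) or of batch 2 (0.89, adjusted p = 0.702), and with only the 6 arrays compared in the fit the adjusted p was 0.154.

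FYN in DT40 was also higher at S6 in every batch, at 10.13, 10.24 and 9.52, against 8.46, 8.78 and 8.07 at C6. The within-batch differences were 1.67, 1.47 and 1.45, and their mean of 1.53 ± 0.33 (2.88-fold) had an adjusted p of 0.177 in limma. The second FYN probe set gave 1.64 ± 0.3 (3.11-fold, adjusted p = 0.0715). In the fit blocked by serum batch both probe sets were called (adjusted p = 0.0398 and 0.01). The first was also called without the DT40 C24 array of batch 3 (0.0399). The second was also called without the DT40 arrays C6 of batch 2 (0.0362), C24 of batch 2 (0.0457), C24 of batch 3 (0.0252) or S6 of batch 3 (0.00679). SYK was lower at S6 in each DT40 batch, by differences of -0.34, -0.53 and -0.52 that were not called (-0.46 ± 0.14, adjusted p = 0.517). LYN in DT40 gave -0.39, -0.44 and -0.43 within batches, likewise without a call (-0.42 ± 0.14, adjusted p = 0.576).

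**Figure D3:**
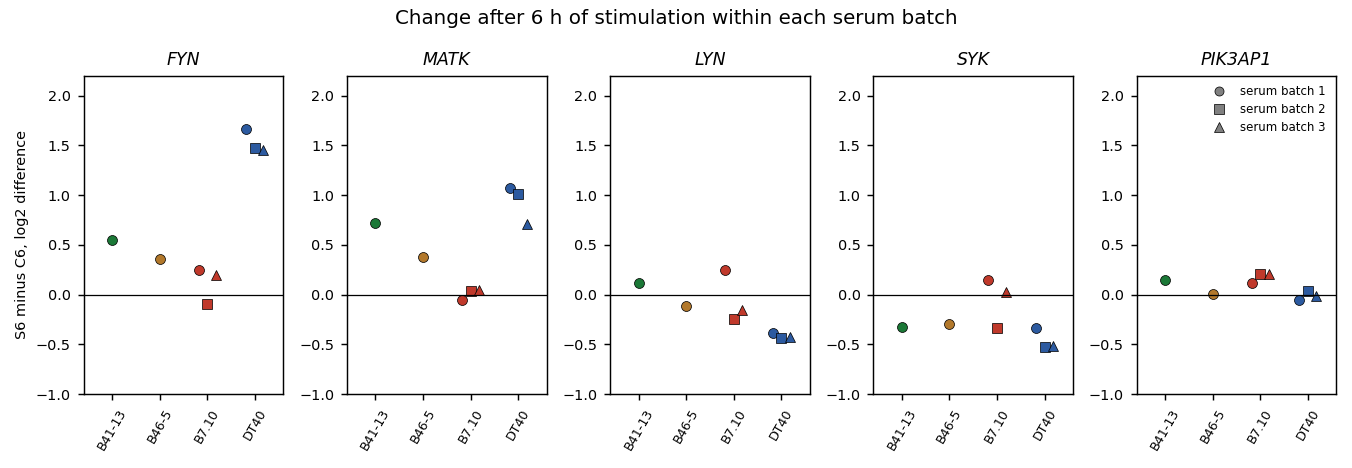
Difference of S6 minus C6 within a serum batch (log2, y axis) for FYN, MATK, LYN, SYK and PIK3AP1 in each line, 1 point per batch (B41-13 and B46-5 have batch 1 only). The MATK points of B7.10 lie between -0.05 and 0.05 and those of DT40 between 0.71 and 1.07.

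In the knockout no member passed the test at 6 h of stimulation, and limma called 0 of all probe sets (0%). At an unadjusted p under 0.05, 2 of the 18 member probe sets remained. That count also stands without the share of all probe sets at the same cut-off. Blocked by serum batch, the fit called 616 of all probe sets in B7.10, none of them a member. The FYN differences within batches 1, 2 and 3 of B7.10 were 0.25, -0.09 and 0.2, and those of MATK were -0.05, 0.04 and 0.05. The B7.10 S6 arrays of batches 2 and 3 are among the disputed ones, for serum batch and for stimulation. The missing response in B7.10 and the differences in response given next rest in part on them. For MATK the B7.10 response minus the DT40 response was -0.92 ± 0.18 (95% interval -1.3 to -0.54). This interaction had an unadjusted p of 6.48e-05 and an adjusted p of 0.355 in limma, over a comparison in which 0.00261% of probe sets were called. It passed only when the DT40 S6 array of batch 3 was left out (-1.05, adjusted p = 0.0321). For FYN the interaction was -1.41 ± 0.47 (interval -2.38 to -0.43, adjusted p = 1). The difference in response between the lines thus did not pass the test for either gene. In batch 1 the S6 minus C6 difference of MATK was 0.72 in B41-13 and 0.38 in B46-5, and that of FYN was 0.55 in B41-13 and 0.36 in B46-5, with 1 array in each group and no test. Both S6 arrays have disputed labels, that of B41-13 for line and time and that of B46-5 for time.

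After 24 h instead of 6 h of unstimulated culture, no member was called in either line (0.232% of all probe sets were called in B7.10 and 0.573% in DT40). At an unadjusted p under 0.05 there were 7 of 18 probe sets in B7.10 and 5 of 18 in DT40. The share of all probe sets at that cut-off is not reported here, so these counts are not a result about the members. PIK3AP1 was higher at C24 in every batch and line. In B7.10 it was 10.07, 10.44 and 10.01 at C24, against 9.74, 9.68 and 9.5 at C6, and in DT40 it was 10.01, 10.18 and 9.82 at C24, against 9.6, 9.67 and 9.23 at C6. The groups did not overlap in either line. The PIK3AP1 differences were 0.53 ± 0.15 in B7.10 (limma adjusted p = 0.148) and 0.5 ± 0.15 in DT40 (adjusted p = 0.146), and both were called in the blocked fit (0.0143 in B7.10 and 0.0118 in DT40). In B41-13 and B46-5 the single differences were 0.32 and 0.53. FYN was lower at C24 in all 8 pairs of arrays, by values from -0.57 in batch 2 to -1.52 in B7.10 of batch 3, also without a call (-0.92 ± 0.33 in B7.10, adjusted p = 0.251). No member differed between the lines in its change with time, where 0.00521% of all probe sets did.

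Between serum batches 1 of the 18 probe sets was called. PIK3AP1 differed between the 3 batches of serum (limma F test, adjusted p = 0.0418), where 0.776% of all probe sets did. Batch 3 gave the lowest PIK3AP1 level of its group in all 6 groups of B7.10 and DT40. The call was close to the threshold. It held without DT40 S6 of batch 1, B7.10 C24 of batch 1, B7.10 C6 of batch 2, B7.10 S6 of batch 2 or B7.10 S6 of batch 3, and was lost without any 1 of the other 13 arrays (adjusted p up to 0.1) or without the disputed arrays (0.0692).

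**Figure D4:**
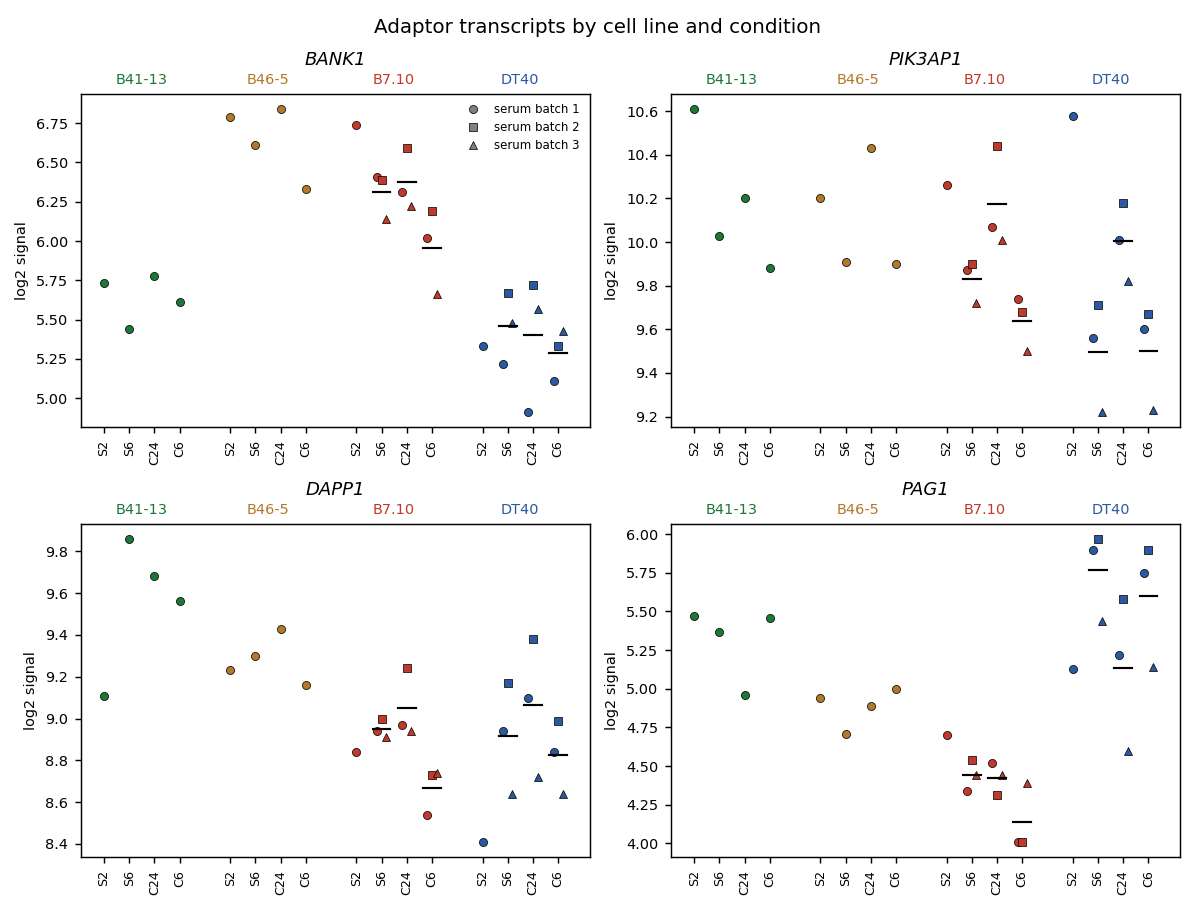
Level (log2, y axis) of the adaptors BANK1, PIK3AP1, DAPP1 and PAG1 on each of the 28 arrays, by line and condition (x axis); marker shapes show the serum batch and bars the mean of groups with 3 arrays. BANK1 stands highest in B46-5 and B7.10 and lowest in DT40, PAG1 lowest in B7.10, and DAPP1 highest in B41-13.

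The reconstituted lines were compared with the others in the 16 arrays of serum batch 1, fitted as line plus condition, so that a line difference is tested against its spread over the 4 conditions. These comparisons share arrays, and each is given by its own values. In B41-13, which carries active human BTK, 7 of 18 probe sets differed from B7.10 (10.8% of all probe sets were called). FYN at S2, S6, C24 and C6 was 9.61, 10.21, 8.55 and 9.66 in B41-13, against 7.17, 7.28, 6.36 and 7.03 in B7.10. Every B41-13 value of FYN exceeded every B7.10 value, by 2.55 ± 0.18 or 5.85-fold (95% interval 2.17 to 2.92, limma adjusted p = 2.49e-08). PAG1 was higher in B41-13, with 5.47, 5.37, 4.96 and 5.46 in B41-13 against 4.7, 4.34, 4.52 and 4.01 in B7.10 (0.92 ± 0.17, adjusted p = 0.00118). BANK1 was lower, with 5.73, 5.44, 5.78 and 5.61 in B41-13 against 6.74, 6.41, 6.31 and 6.02 in B7.10 (-0.73 ± 0.11, adjusted p = 0.000234). LYN was lower as well, at -0.56 ± 0.12 in the brightest probe set (adjusted p = 0.00353) and -0.68 ± 0.13 in the second brightest (adjusted p = 0.0016). The second BANK1 probe set was not called between B41-13 and B7.10.

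DAPP1, which was not called between B7.10 and DT40, was higher in both reconstituted lines. It was higher in B41-13 than in B7.10, with 9.11, 9.86, 9.68 and 9.56 at S2, S6, C24 and C6 in B41-13 against 8.84, 8.94, 8.97 and 8.54 in B7.10 (0.73 ± 0.11, limma adjusted p = 0.000235). It was as much higher in B41-13 than in DT40, where the levels were 8.41, 8.94, 9.1 and 8.84 (0.73 ± 0.11, adjusted p = 0.000172). In B46-5 DAPP1 was 9.23, 9.3, 9.43 and 9.16, which exceeded B7.10 by 0.46 ± 0.11 (adjusted p = 0.0153) and DT40 by 0.46 ± 0.11 (adjusted p = 0.0101). The excess over B7.10 lost its call without the disputed arrays (0.53, adjusted p = 0.0727) and without B7.10 C6 (0.0843), B7.10 C24 (0.0516), B7.10 S6 (0.0511) or B46-5 S2 (0.0767). The excess over DT40 lost it without DT40 S2 (0.0544) or B46-5 S2 (0.0548).

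In B46-5, which carries kinase-inactive human BTK, 3 of 18 probe sets differed from B7.10 (7.05% of all probe sets were called), and DAPP1 was 1 of them. FYN was lower still than in the knockout, with 5.7, 6.32, 4.7 and 5.95 at S2, S6, C24 and C6 in B46-5 against 7.17, 7.28, 6.36 and 7.03 in B7.10. The groups did not overlap, and the difference was -1.29 ± 0.18 or 2.45-fold (limma adjusted p = 8.25e-05). The second FYN probe set was not called (-0.57 ± 0.27, adjusted p = 0.282), and its values overlapped, with 4.26, 4.83, 4.22 and 4.94 in B46-5 against 5.34, 5.35, 4.69 and 5.16 in B7.10. In B46-5 these values lay nearer to background than those of the first probe set, so the missing call says little. MATK was higher, with 8.39, 8.63, 7.9 and 8.26 in B46-5 against 7.09, 7.41, 7.17 and 7.47 in B7.10, a difference of 1.01 ± 0.15 or 2.01-fold (adjusted p = 0.000191). PAG1 was 0.49 higher in B46-5 without a call (adjusted p = 0.103; 0.0472 without DT40 S2).

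**Figure D5:**
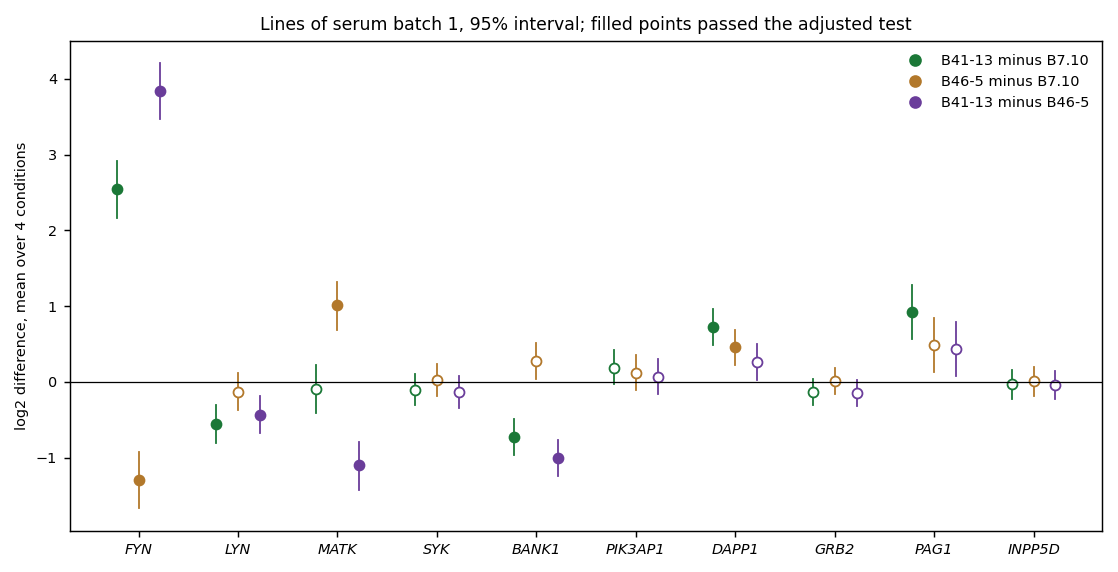
Differences between lines in serum batch 1 (log2, y axis, with 95% interval) for 1 probe set of each of the 10 genes (x axis), as B41-13 minus B7.10, B46-5 minus B7.10 and B41-13 minus B46-5. Filled points passed the limma threshold. FYN lies at 2.55, -1.29 and 3.84 in these comparisons, whereas GRB2, INPP5D and SYK lie close to 0.

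The constructs with and without kinase activity were separated by 6 of 18 probe sets (11.1% of all probe sets were called). FYN was 3.84 ± 0.18 log2 units higher in B41-13 than in B46-5, 14.3-fold (95% interval 3.47 to 4.21, limma adjusted p = 1.07e-10), and the second FYN probe set 2.83 ± 0.27 higher (adjusted p = 8.87e-07). MATK was lower in B41-13, with 7.28, 7.63, 6.94 and 6.92 at S2, S6, C24 and C6 in B41-13 against 8.39, 8.63, 7.9 and 8.26 in B46-5 (-1.1 ± 0.15, adjusted p = 5.5e-05). BANK1 was lower, with 5.73, 5.44, 5.78 and 5.61 in B41-13 against 6.79, 6.61, 6.84 and 6.33 in B46-5 (-1.01 ± 0.11, adjusted p = 5.82e-06). The values of FYN, MATK and BANK1 did not overlap between B41-13 and B46-5. The second BANK1 probe set was not called and did overlap, with 4.2, 3.98, 4.15 and 4.41 in B41-13 against 4.8, 4.19, 4.21 and 4.43 in B46-5. The share of all probe sets without overlap was not counted. The LYN differences of -0.43 ± 0.12 (adjusted p = 0.0204) and -0.57 ± 0.13 (second brightest probe set, adjusted p = 0.00651) were not called without the disputed arrays (0.108 and 0.0628). The first of them was also lost without B41-13 C6 (0.071), B41-13 S2 (0.0762), B46-5 C6 (0.0733), B46-5 S2 (0.0562) or B46-5 S6 (0.0512).

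Set against parental cells, B41-13 differed in 4 of 18 probe sets (12.8% of all probe sets were called) and B46-5 in 9 of 18 (11.4%). FYN in B41-13 was 0.76 ± 0.18 above DT40, whose values at S2, S6, C24 and C6 were 8.78, 10.13, 7.61 and 8.46 (limma adjusted p = 0.00672), and the ranges overlapped. The second FYN probe set was not called, with 7.87, 8.24, 6.21 and 7.27 in B41-13 against 7.25, 8.25, 5.68 and 6.31 in DT40. The second BANK1 probe set was not called either. BANK1 in B41-13 was 0.49 ± 0.11 above DT40, whose values were 5.33, 5.22, 4.91 and 5.11 (adjusted p = 0.00606). DAPP1, above, and the dimmest of the 3 GRB2 probe sets were the others called, the GRB2 probe set at -0.63 ± 0.15 (adjusted p = 0.00932). Its DT40 C24 value of batch 1 was 9.39, the highest of all, and without that array the difference was -0.39 (adjusted p = 0.0153). Without B41-13 C24 the adjusted p was 0.0511. PAG1 in B41-13 was not called against DT40 (-0.19, 95% interval -0.54 to 0.17), nor was LYN (0.07, interval -0.17 to 0.32) or MATK (-0.39, interval -0.71 to -0.08, adjusted p = 0.104; 0.0259 without DT40 C24). B46-5 stood apart from DT40 in FYN (-3.08 ± 0.18, 8.44-fold, adjusted p = 9.48e-10), BANK1 (1.5 ± 0.11, 2.83-fold, adjusted p = 3.32e-08), MATK (0.71 ± 0.15, adjusted p = 0.00348) and LYN (0.51 ± 0.12, adjusted p = 0.00689; 0.069 without the disputed arrays). PAG1 was lower in B46-5, at -0.62 ± 0.17 (adjusted p = 0.022). The PAG1 call was lost without the disputed arrays (0.236), DT40 C6 (0.099), DT40 S6 (0.11), B46-5 S2 (0.0504) or B46-5 S6 (0.105). The second BANK1 probe set was 0.48 higher in B46-5, with a mean of 4.41 there. Its DT40 mean of 3.92 lay near background, so the size of this difference is uncertain.

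The lines were also grouped by an intact BTK kinase, in a contrast that was chosen after the data had been seen and that reuses the same 16 arrays. DT40 and B41-13 differed from B7.10 and B46-5 in 8 of 18 probe sets (12.7% of all probe sets were called). The 8 arrays of a side are conditions of the same lines and not replicates of a kinase state. The p-values of this contrast measure the spread over conditions and not the spread between lines. FYN averaged 9.13 ± 0.92 in DT40 and B41-13 and 6.31 ± 0.87 in B7.10 and B46-5 (SD, n = 8 arrays each), with no overlap. BANK1 averaged 5.39 ± 0.3 in DT40 and B41-13 and 6.51 ± 0.29 in B7.10 and B46-5, also without overlap. The differences were 2.81 ± 0.13 for FYN (7.02-fold, limma adjusted p = 3.01e-11), -1.12 ± 0.08 for BANK1 (2.17-fold, adjusted p = 1.69e-08), 0.77 ± 0.12 for PAG1 (adjusted p = 0.000184) and -0.53 ± 0.08 for LYN (adjusted p = 0.000182). MATK gave -0.4 ± 0.11 (adjusted p = 0.0159), and lost its call without the disputed arrays (0.0714) and after cyclic loess scaling (0.0501). By line, MATK averaged 7.58 in DT40 and 7.19 in B41-13, against 7.29 in B7.10 and 8.29 in B46-5, so that the mean of B7.10 lay below that of DT40, against the direction of the contrast, and B46-5 had the highest mean. SYK, PIK3AP1, DAPP1, GRB2 and INPP5D were not called.

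At 2 h of stimulation, compared with 6 h unstimulated and tested over the 4 lines, 3 of 18 probe sets were called (7.96% of all probe sets were called). The times differ between these groups, so the comparison holds stimulation and culture time together. PIK3AP1 was 10.61, 10.2, 10.26 and 10.58 at S2 in B41-13, B46-5, B7.10 and DT40, against 9.88, 9.9, 9.74 and 9.6 at C6. It was higher in every line, by 0.63 ± 0.11 or 1.55-fold (95% interval 0.4 to 0.86, limma adjusted p = 0.00136). At S6 the PIK3AP1 level was lower than at S2 in every line, by differences of -0.58, -0.29, -0.4 and -1.02 in the same order. INPP5D, which encodes SHIP1, the phosphatase that degrades the lipid product of phosphoinositide 3-kinase, was lower at S2 in every line, with 6.2, 6.38, 6.25 and 6.04 at S2 against 6.52, 6.49, 6.54 and 6.68 at C6 (-0.34 ± 0.09, adjusted p = 0.0278). The INPP5D call was lost without DT40 C6 (-0.23, adjusted p = 0.117), DT40 S2 (0.0853), B7.10 S2 (0.0662), B41-13 C6 (0.0568) or B41-13 S2 (0.0885), and the second INPP5D probe set was not called (-0.19, adjusted p = 0.263). BANK1 was higher by 0.38 ± 0.11 with an adjusted p of 0.0472, but its second probe set was lower in 3 of the 4 lines, without a call (-0.1 ± 0.11, adjusted p = 0.672). The BANK1 call was lost when any 1 of 10 arrays was left out, namely S2 of any line, S6 of DT40, B7.10 or B46-5, C24 of B7.10, or C6 of B7.10 or B46-5 (adjusted p up to 0.176).

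The wider receptor pathway was read from lists of 88 further genes, of which 66 were measured. B7.10 differed from DT40 in 18 of these 66 genes on average over S6, C24 and C6, 9 higher and 9 lower (19.6% of all genes were called), with a median of 0.04 against 0 for all genes. Of 7 receptor and coreceptor genes 1 was called, CD79B, which carries the signal into the cell and was 0.46 ± 0.09 higher in B7.10 (limma adjusted p = 0.00203). None of the 8 other Src, Csk and Syk family kinases was called, and 1 or more was called in each of the other lists. Of these 8 kinases 3 lay near background, where a missing call says little. Of 20 other adaptors 5 were called, among them SLA, a negative regulator of receptor signalling, at -0.81 ± 0.21 (adjusted p = 0.0125) and DOK3, another inhibitory adaptor, at 0.41 ± 0.11 (adjusted p = 0.0137; 0.0591 without the disputed arrays). Of 10 phosphatases 3 were called, with UBASH3B, which dephosphorylates SYK and ZAP70, at -0.82 ± 0.09 (adjusted p = 2.91e-06). Among the other pathway genes called, PIK3CB, a catalytic subunit of phosphoinositide 3-kinase, was at -1.08 ± 0.09 (adjusted p = 5.46e-08) and the phosphoinositide-binding adaptor PLEKHA2 at 0.76 ± 0.09 (adjusted p = 3.31e-06).

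In the contrast by intact kinase 19 of these 66 pathway genes were called, 9 higher and 10 lower, where 17.3% of all genes were. SLA was 1.49 ± 0.08 higher in DT40 and B41-13 than in B7.10 and B46-5 (limma adjusted p = 8.55e-10), PIK3CB 1.7 ± 0.13 higher (adjusted p = 4.95e-08) and PLEKHA2 was lower there, at -0.69 ± 0.07 (adjusted p = 8.84e-07). For S2 minus C6 over the 4 lines, which holds stimulation and culture time together, 9 of 66 were called, all higher. Of all genes 11% were called there in either direction and 4.2% as higher. PIK3R5, a regulatory subunit of phosphoinositide 3-kinase, was 1.14 ± 0.17 higher at S2 (adjusted p = 0.000464) and PIK3CB 1.2 ± 0.19 higher (adjusted p = 0.000587). For S6 minus C6 in DT40, a separate fit at matched time, none of the 66 was called, where 0.0922% of all genes were. A missing call there is not an absence of change, since PIK3CB averaged 6.35 at S6 and 5.52 at C6 in DT40.

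Across the 28 arrays, which share lines and conditions, some members varied together and others in opposition. FYN correlated with PAG1 at r = 0.74, with BANK1 at r = -0.74 and with LYN at r = -0.69, and LYN correlated with SYK at r = 0.8. The genes most like a member were sought among all other genes of sufficient spread and level. For FYN they were WBSCR17 (r = 0.936) and VMP1 (0.922), and for BANK1 OXCT1 (0.906) and ENDOUL (0.888). For LYN they were RAD54B (0.891) and TNFSF13B (0.888). For PAG1 they were GPR183 (0.86) and ADCY7 (0.855), and for PIK3AP1 TNFRSF13B and STARD4 (0.809 each). For MATK, SYK, DAPP1, GRB2 and INPP5D the closest gene reached 0.799 (DDX49), 0.83 (DCK2), 0.814 (THSD7A), 0.769 (TMEM106B) and 0.742 (CEP85). These values describe the 28 arrays, and differences between lines enter all of them.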

How the data were processed

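Total RNA from 28 pools was hybridised to Affymetrix chicken arrays from 5 ug of RNA, per the labels' protocols. The deposited values are log2 signals that the authors computed with RMA, per the submitters' processing notes; its version and whether arrays were processed jointly is not given in the sources here. RMA brings arrays to a common distribution, which removes any global shift in RNA content. Of 38535 probe sets 153 controls were left out. The platform annotation named 1 gene for 27168 probe sets, several for 177 and no gene for 11037.

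The 18 arrays of B7.10 and DT40 at S6, C24 and C6 were fitted as 6 groups, leaving 12 residual degrees of freedom, with limma 3.58.1 in R 4.3.3, and the 16 arrays of serum batch 1 as line plus condition (9 residual degrees of freedom). Adjusted p-values are Benjamini-Hochberg values over 38382 probe sets. Per the labels, arrays with the same number shared a batch of serum, which pairs them. As a check, array deviations from their group had a median r of 0.122 over 45 same-batch pairs (-0.053 to 0.446) and of -0.06 over 90 other pairs (-0.336 to 0.28). Deviations within a group sum to 0, so the negative median of the other pairs follows from the positive one and adds no separate evidence. The blocked fit had 10 residual degrees of freedom.

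The members and pathway lists were chosen with earlier results of these data known. All members are named, and from a pathway list at most 2 genes each way with the smallest adjusted p. The count of 1 pathway list is not reported here. The genes most like a member had the highest Pearson r over 28 arrays among probe sets of 1 gene. These needed an SD of at least 0.25 and a mean of at least 3.98. The tests were also run on simulated data with known changes, in which the random spread was independent between arrays. The outcome is not reported here. Alternatives were the block, a filter that removed the 40% of probe sets with the lowest mean, cyclic loess, trended and robust moderation, only the arrays compared, and leaving out the disputed arrays, each array or each batch. Added after seeing the data were the contrast by intact kinase, the block without disputed arrays, and single arrays left out of the serum test. Number of arrays limits the precision. Python 3.11.15, pandas 2.3.3, numpy 2.4.6 and matplotlib 3.10.9 made tables and figures.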

Additional observations from a re-analysis of the deposited data

Results flagged for a closer look

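Between 24 h and 6 h of unstimulated culture, the PAG1 difference had opposite signs in knockout and parental cells. In every batch PAG1 was higher at C24 than at C6 in B7.10 (mean 0.29 log2 units, with 0.51, 0.3 and 0.06 in batches 1, 2 and 3) and lower in DT40 (mean -0.46, with -0.53, -0.32 and -0.54). The difference between the lines was 0.75 ± 0.3 (95% interval 0.12 to 1.38), with an adjusted p of 0.786 in limma and an unadjusted p of 0.0227. The PAG1 levels of B7.10 lie close to background. The second brightest of the 3 GRB2 probe sets had opposite signs as well, with a mean of -0.19 in B7.10 (-0.23, -0.08 and -0.26) and of 0.14 in DT40 (0.25, 0.15 and 0.01). Its difference between the lines was -0.33 ± 0.13 (adjusted p = 0.786 in limma). Neither difference passed the test over all probe sets.

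Groups of 1 line and 1 condition held at most 3 arrays, too few to ask whether an array stands apart, so the arrays of a line were pooled across conditions. By Dixon's test 1 array stood apart in 4 of 72 combinations of a member probe set and a line, where chance gives about 5%. The dimmest GRB2 probe set was 9.39 in DT40 at C24 of batch 1, against 7.91 to 8.45 on the other 9 arrays of the line. The same probe set was 8.44 in B7.10 at C24 of batch 2, against 7.95 to 8.18. The second brightest LYN probe set was 7.8 on the only B7.10 array at S2, against 6.65 to 7.24. An effect of the condition and an array that stands apart cannot be told apart there. This probe set was also highest at S2 in B46-5 (7.41) and B41-13 (6.75), but not in DT40 (6.21). The second BANK1 probe set was 3.96 in B7.10 at S6 of batch 1, near background, against 4.3 to 4.56.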

How the results depend on the processing

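Counts are of the 18 member probe sets, or of all probe sets where said. Blocking by serum batch called 4 instead of 2 for B7.10 minus DT40 at C24, 3 instead of 1 for S6 minus C6 in DT40, and 1 instead of 0 for C24 minus C6 in B7.10 and in DT40. The same block without the disputed arrays called 3 for S6 minus C6 in DT40 and 1 for C24 minus C6 in each line. Blocking raised the members called at S6 between the lines to 10, against 7, and changed no member calls beyond those given with the results. With only the arrays compared, 1 was called for B7.10 minus DT40 at C24 and 0 for S6 minus C6 in DT40. Cyclic loess called 1 for C24 minus C6 in B7.10. The serum batch call went to 0 under cyclic loess and without the disputed arrays.

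Leaving out 1 array or 1 whole batch gave 7 to 8 calls for B7.10 minus DT40 on average, 4 to 8 at S6, 0 to 5 at C24 and 0 to 6 at C6. It gave 0 for S6 minus C6 in B7.10, 0 to 3 in DT40, 0 to 1 for the difference of those responses and 0 for the changes to C24. Single arrays left out gave 0 to 2 for the serum batch, 7 to 9 for B41-13 minus B7.10, 2 to 4 for B46-5 minus B7.10, 5 to 6 for B41-13 minus B46-5, 3 to 5 for B41-13 minus DT40, 7 to 10 for B46-5 minus DT40, 1 to 5 for S2 minus C6 and 8 to 10 for the contrast by intact kinase. The 0 at C24 and at C6 arose without all arrays of batch 1. Of the 66 pathway genes, 8 instead of 18 were called between B7.10 and DT40 without batch 1.

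Over all probe sets, S6 minus C6 called 0 in B7.10, against 1 under cyclic loess and 616 when blocked. In DT40 it called 17, against 41 when blocked, 32 when blocked without the disputed arrays and 6 with only the arrays compared. The difference of these responses called 1, against 2 when blocked and 0 without the disputed arrays. C24 minus C6 called 89 in B7.10 (270 blocked, 25 without the disputed arrays, 150 with both, 4 with only the arrays compared) and 220 in DT40 (554, 146, 364 and 29 in that order), and the difference of these changes called 2 (1 without the disputed arrays). Without the disputed arrays B7.10 minus DT40 at S6 called 958 (1088 when blocked) instead of 2071, the serum batch 102 instead of 298, B46-5 minus B7.10 1406 instead of 2705, B41-13 minus B46-5 2190 instead of 4244, and B46-5 minus DT40 2500 instead of 4376. B7.10 minus DT40 at C24 called 728 with only the arrays compared, instead of 1705. For single genes 10613 values were recomputed, of which 276 lost a call, 79 gained a call and 0 reversed a call.

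The number of arrays limits what can be detected: every group of B41-13 and B46-5 and every S2 group had 1 array, and line differences there are measured against an additive fit. The causes of these shifts were not tested.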
